A study of Mus musculus with 14 samples.

Results

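CCL6 (gene Ccl6, listed on the array as CCL6/C10) was 1 of the 111 serum proteins read on a membrane antibody array from wounded mice. It was selected on its own measured values, because both of its 16 h samples lay far above both of its 2 h samples under either dressing, so its levels over time, the steps between times and the difference of these steps between the dressings are given as a description without a test. Only the differences between the dressings at a given time are given with a test. The selection was on steps in time and not on these differences, but it drew on the same samples, so the tests are not fully independent of it.

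All groups were male C57BL/6JNarl mice, 8 weeks old, and the methods describe isoflurane anaesthesia and a full-thickness punch wound on the back for all. They also list diazepam and ketorolac. One passage says that such drugs were given when needed, and the methods do not say which mice received them. In the NP groups the wound was held under a negative pressure device and blood was taken at 0.5, 2 and 16 h. In the AP groups the wound lay under a wet dressing at atmospheric pressure and blood was taken at 0.5, 2 and 16 h, and a further group, AP 0 h, labelled as the control, served as the start for both pressures, since NP had no 0 h group of its own. Each of the 7 groups has 2 samples, 14 in all. Serum was combined in portions of 20 µL to 100 µL for a membrane. A sample may thus be a pool. The methods give only a few mice for each time point, at least 2, but do not say how many animals a sample holds. The methods speak of 2 independent experiments with duplicate values, but neither they nor the labels say whether the 2 samples of a group came from separate animals, and how much of the spread behind the p-values below is technical is therefore not known. By the study note the AP 0 h experiment was not repeated, yet 2 samples carry that label.

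CCL6 is a mouse CC chemokine of the group that signals through the receptor CCR1 and draws macrophages and other leukocytes. In mice it is made mainly by cells of the myeloid lineage, and in cultured mouse macrophages it is induced by IL-3, IL-4, IL-13 and GM-CSF rather than by the classic inflammatory stimuli that induce many other chemokines. In the mouse genome (assembly GRCm38.p6) Ccl6 lies in a cluster of CC chemokine genes in the order Ccl5, Ccl9, Ccl6, Ccl3, Ccl4. Of its neighbours, CCL5 and a combined spot for CCL3 and CCL4 were on the array and CCL9 was not.

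The array carries each antibody as a pair of spots, CCL6 in row B at columns 3 and 4. It also carries 3 positions of Reference Spots, which are positive controls, and a Negative Control. The brightness of the whole membrane differed between groups: the mean Reference Spot intensity of a sample lay between 17963 and 44156 in the 12 samples taken from 0.5 h on, and was 163044 and 168078 at AP 0 h. The deposited normalized intensity levels the 2 samples of a group with each other, by factors of 0.859 to 1, but does not level the groups. CCL6 is therefore given on 2 scales, the normalized intensity and the raw intensity as a percent of the sample's mean Reference Spots, and by its rank in brightness among the 111 analytes, which no constant per sample can change. CCL6 was above the Negative Control in 14 of 14 samples, by 40.7 to 1174-fold. The number of analytes above the Negative Control ranged over the samples from 66 to 111.

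CCL6 was among the brighter analytes at AP 0 h, of middle rank at 0.5 and 2 h, and among the 10 brightest analytes at 16 h under both pressures. At AP 0 h its normalized intensity was 25913 and 23923, with ranks 28 and 30 of 111. At 0.5 h it was 3721 and 3885 in NP, with ranks 52 and 49, against 6160 and 6106 in AP, with rank 36 in both samples. At 2 h it was 2992 and 3242 in NP, with ranks 42 and 41, against 4693 and 4343 in AP, with ranks 52 and 53. The 4 samples of each of these times lay below both AP 0 h samples and below all 4 samples of 16 h. At 16 h CCL6 was 21089 and 20269 in NP, the fifth brightest analyte in both samples, against 17260 and 18682 in AP, where it was the ninth in both. The 2 samples of a group differed by 0.886% to 8.01% of their mean, and no 2 groups overlapped on this scale.

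**Figure D1:**
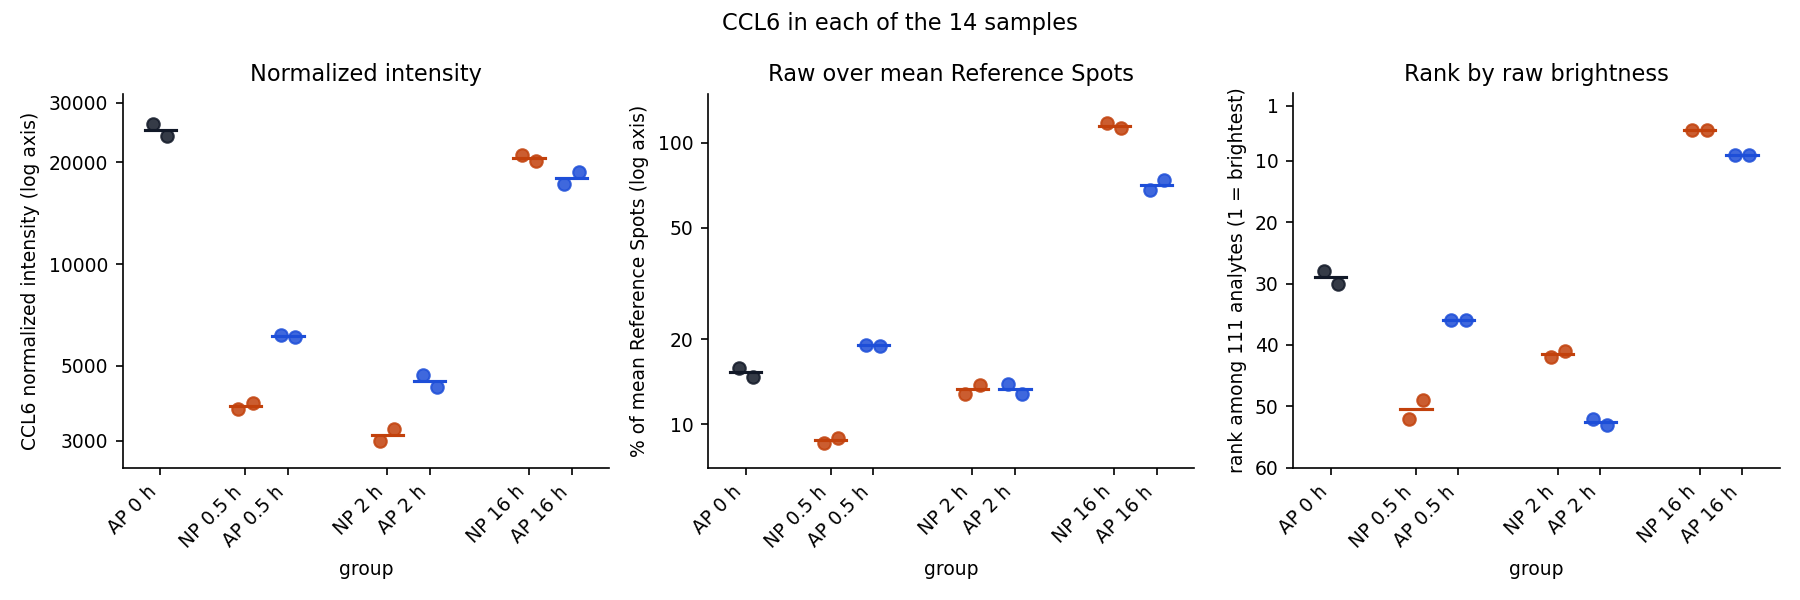
CCL6 in each of the 14 samples, as normalized intensity (left, log axis), as a percent of the mean Reference Spots (middle, log axis) and as rank in raw brightness among 111 analytes (right, 1 at the top is the brightest). Points are samples and lines are group means, with NP in orange, AP in blue and AP 0 h in black. On all 3 scales the 4 samples of 16 h lie above the samples of 0.5 and 2 h, whereas AP 0 h is the highest group only in the left panel.

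The order of the groups was another one relative to the Reference Spots. CCL6 was 117% and 113% of the mean Reference Spots in NP at 16 h, against 68.1% and 73.7% in AP at 16 h. These 4 values stood apart from the other 10 samples, which lay between 8.57% and 19.2%. At 0.5 h CCL6 was 8.57% and 8.94% in NP, against 19.2% and 19% in AP. At 2 h it was 12.7% and 13.8% in NP, against 13.9% and 12.8% in AP, and the pressures overlapped. AP 0 h was at 15.9% and 14.7%, below AP at 0.5 h and above both 2 h groups. From high to low, the group means were 115% ± 3.23 in NP at 16 h, 70.9% ± 3.97 in AP at 16 h, 19.1% ± 0.12 in AP at 0.5 h, 15.3% ± 0.863 at AP 0 h, 13.3% ± 0.73 in AP at 2 h, 13.3% ± 0.751 in NP at 2 h and 8.75% ± 0.266 in NP at 0.5 h (SD, n = 2 each). Only the 2 h groups overlapped among the neighbours in this order.

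From 2 to 16 h CCL6 had a step of 2.73 on the log2 scale of normalized intensity in NP, 6.64-fold, and of 1.99 in AP, 3.98-fold. The median step of the 111 analytes was 0.17 in NP and -0.47 in AP, so that CCL6 stood 2.56 above the median analyte in NP and 2.46 above it in AP. The steps relative to the Reference Spots were 3.12 in NP and 2.41 in AP. Both 16 h samples lay above both 2 h samples, which was also so for 49 analytes in NP (44.1%) and 23 in AP (20.7%) on normalized intensity, and for 69 in NP (62.2%) and 40 in AP (36%) relative to the Reference Spots. This was so in both pressures together for 19 analytes (17.1%) on normalized intensity and for 34 (30.6%) relative to the Reference Spots. Such a position at 16 h was thus shared by many analytes, and CCL6 was picked for the size of its steps.

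CCL6 had the fifth largest step of 111 in NP and the second largest in AP on both scales. These places count all analytes as read, also those not above the Negative Control at 2 h, whose steps have no upper bound. Of the analytes with a larger one in NP, FGF-21, a metabolic hormone, had steps of 4.42 in NP and -1.53 in AP on normalized intensity. CXCL13, which attracts B cells, had 3.18 in NP and -1.06 in AP. Coagulation Factor III (tissue factor, the starter of clotting) had 2.84 in NP and -4.50 in AP, where 1 of 2 samples at 16 h was above the Negative Control. G-CSF, a growth factor of neutrophils, had 2.83 in NP and -0.55 in AP, with 1 of its 2 NP samples at 2 h and neither AP sample at 16 h above the Negative Control. All 4 thus had a negative step in AP. The 1 analyte above CCL6 in AP was Pentraxin 2 (serum amyloid P component, a plasma protein of the pentraxin family), with 1.39 in NP and 2.23 in AP. When each analyte was placed by the smaller of its 2 steps, CCL6 came first at 1.99 and Pentraxin 2 came next at 1.39, and relative to the Reference Spots the same pair stood at 2.41 and 1.78.

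**Figure D2:**
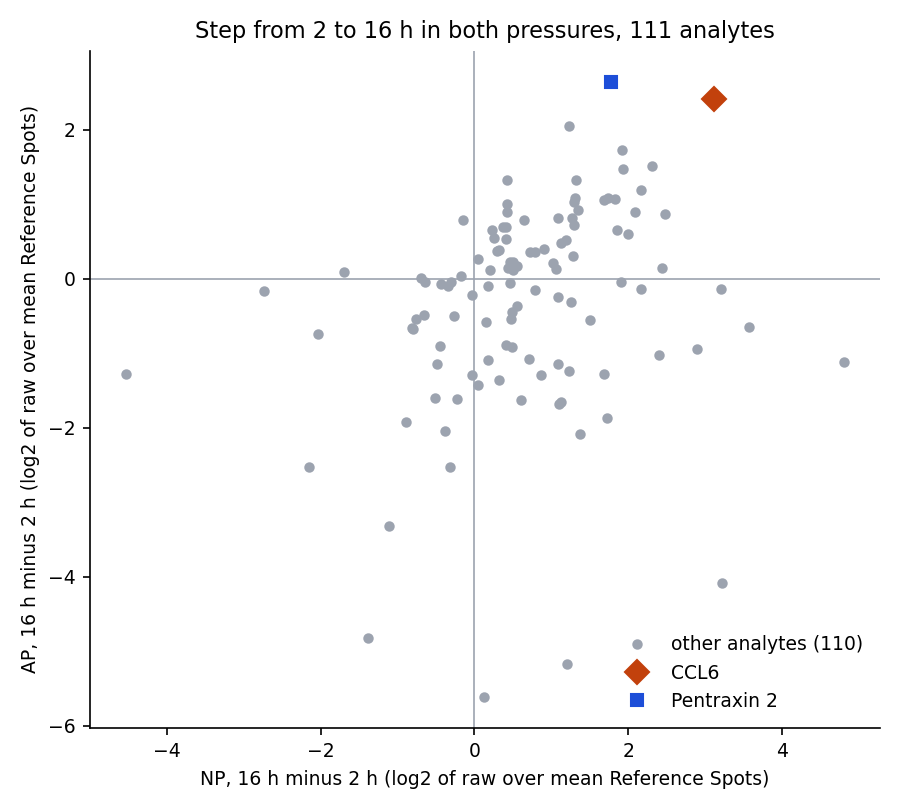
Step of each of the 111 analytes between 2 and 16 h, in NP (horizontal axis) and in AP (vertical axis), as differences of group means of log2 raw intensity over the mean Reference Spots. Gray points are the 110 other analytes. CCL6 (orange diamond, 3.12 in NP and 2.41 in AP) and Pentraxin 2 (blue square, 1.78 and 2.65) lie at the upper right, while the analytes further right than CCL6 lie below 0 in AP.

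The 16 h values were also above those of 0.5 h. In NP the step from 0.5 to 16 h was 2.44 on normalized intensity, 5.44-fold, and the largest of the 111 analytes. In AP it was 1.55, 2.93-fold, and the fourth largest, after IL-2, IL-3 and IL-17A, of which IL-2 and IL-3 were not above the Negative Control in either AP sample at 16 h and IL-17A was above it in 1. The same steps were 3.72 in NP and 1.89 in AP relative to the Reference Spots.

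The first step of CCL6 was among the lowest of the array. Between AP 0 h and 0.5 h the normalized intensity changed by -2.71 (log2) in NP, place 109 of 111 from the top, and by -2.02 in AP, place 102, while the median analyte changed by -0.68 in NP and -1.19 in AP. With the brighter Reference Spots of AP 0 h taken into account the values were -0.80 in NP and 0.32 in AP, against medians of 1.23 in NP and 1.15 in AP. The places did not move, but the sign in AP did. Between 0.5 and 2 h, CCL6 changed by -0.29 in NP on normalized intensity, where the median analyte changed by -1.39 and CCL6 took place 10 from the top. In AP it changed by -0.44, against a median of 0.20, and took place 95. The value in NP had the other sign, 0.60, relative to the Reference Spots, and in AP it was -0.52.

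Whether CCL6 at 16 h was back at its 0 h level depended on the scale. On normalized intensity it stood at 0.83 of the AP 0 h mean in NP and at 0.721 of it in AP, with both samples below both AP 0 h samples in each pressure. Relative to the Reference Spots it stood at 7.54 times the AP 0 h mean in NP and at 4.64 times in AP, with both samples above. The Reference Spots were the brightest at AP 0 h, and the share of the membrane's brightness and of the serum in this change was not tested. By rank within the sample, CCL6 was the fifth brightest analyte at 16 h in NP and the ninth in AP, against places 28 and 30 at AP 0 h. In units of the sample's own median analyte it was at 20.3 and 22.7 at 16 h in NP, at 24.9 and 29.8 at 16 h in AP and at 17.9 and 10.9 at AP 0 h.

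The pressures were then compared at each time with limma on log2 normalized intensity over all 14 samples, with p-values adjusted by Benjamini-Hochberg over the 111 analytes and called at an adjusted p of 0.05. At 0.5 h CCL6 was 1.61-fold lower in NP than in AP, a log2 difference of -0.69 ± 0.078 (SE, 95% confidence interval -0.86 to -0.52, limma adjusted p = 2.7e-06). Only 6 of the 111 analytes were called lower in NP at this time (5.41%), and CCL6 had the fourth lowest difference. The median analyte was at 0.42, so CCL6 lay 1.11 below it. After division by a plane through the 3 Reference Spot positions, which levels each place on the membrane separately, the CCL6 difference was -0.81 (limma adjusted p = 2.5e-07), but 46 analytes were called lower in NP, CCL6 was the 29th lowest and it lay 0.42 below the median analyte. Relative to the Reference Spots the difference was -1.12 (limma adjusted p = 3.0e-08), where 24 analytes (21.6%) were called lower in NP and the median analyte was at -0.02.

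At 2 h the direction of the CCL6 difference depended on how the membranes were levelled. On normalized intensity CCL6 was lower in NP by 1.45-fold, with a log2 difference of -0.54 ± 0.078 (SE, interval -0.70 to -0.37, limma adjusted p = 9.5e-06). However, 96 of the 111 analytes (86.5%) were called lower in NP at 2 h and the median analyte was at -1.23, below CCL6 by 0.69. Relative to the mean Reference Spots the CCL6 difference was -0.0081 (interval -0.17 to 0.16, limma adjusted p = 0.94). Relative to the Reference Spot position nearest to CCL6, in the corner A1, it was 0.64 with NP higher (limma adjusted p = 1.6e-06). The Reference Spots were not of equal brightness over the membrane: the corner A1 had 0.48 and 0.561 of the brightness of the corner J1 in the NP samples at 2 h, against 1.30 and 1.21 in the AP samples. The part of this unevenness in the CCL6 difference was not tested.

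At 16 h CCL6 was higher in NP by 0.20 ± 0.078 (log2, SE, interval 0.037 to 0.37, limma adjusted p = 0.035), 1.15-fold. Only 9 of the 111 analytes (8.11%) were called higher in NP at 16 h, and 58 were called lower. CCL6 lay 0.72 above the median analyte, which was at -0.52. The call was lost without the first AP sample (0.15, limma adjusted p = 0.23), without the first NP sample (0.17, limma adjusted p = 0.16) or without the second NP sample (0.23, limma adjusted p = 0.072), and the difference was negative after scaling to the median analyte (-0.34, limma adjusted p = 0.15). With the mean Reference Spots it was 0.70 (limma adjusted p = 2.4e-06), with 23 analytes (20.7%) called higher in NP. The raw Negative Control was 203 and 296 in AP at 16 h and between 21 and 93 in the other 12 samples.

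**Figure D3:**
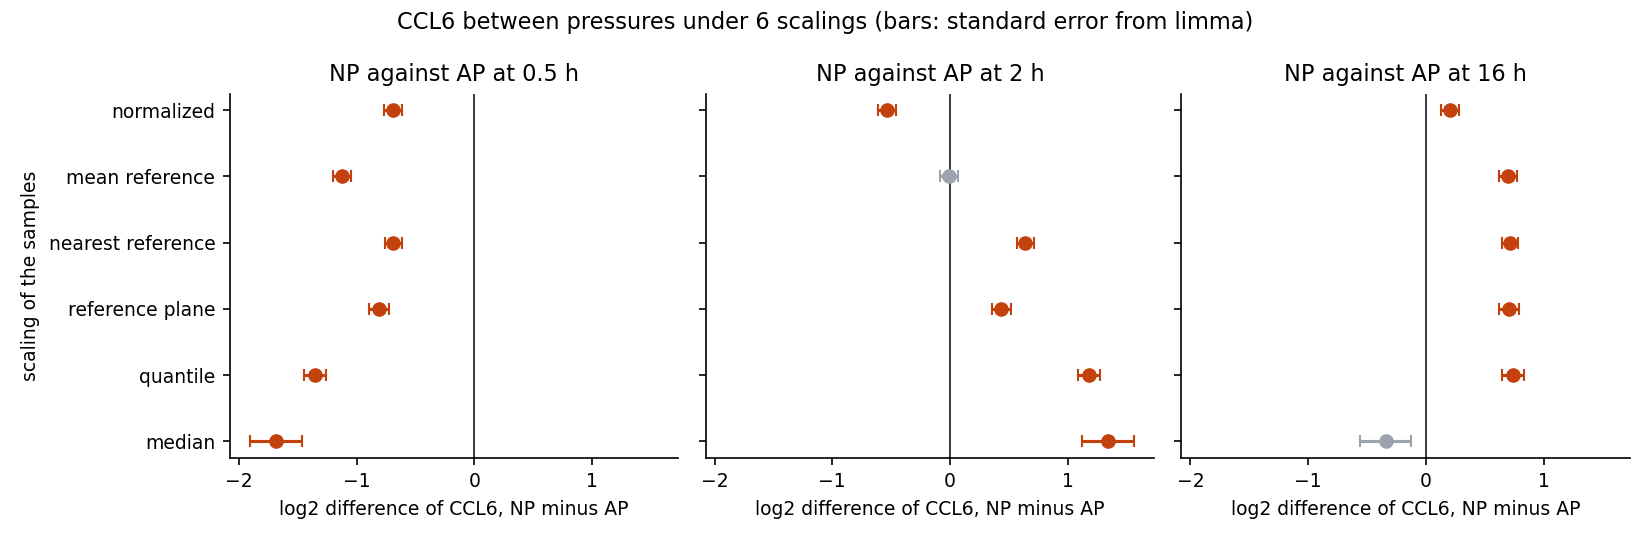
Difference in CCL6 between NP and AP at 0.5, 2 and 16 h (log2, NP minus AP) under 6 scalings of the samples, with the standard error from limma as bars. Orange points were called at an adjusted p of 0.05 and gray points were not. All points at 0.5 h lie below 0, while those at 2 h run between -0.54 and 1.34 and those at 16 h between -0.34 and 0.74.

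The change between times was then set side by side for the pressures, without a p-value for CCL6, because it was selected on these steps. The step from 2 to 16 h was larger in NP than in AP by 0.74 ± 0.11 (log2, SE). Of the 111 analytes, 57 (51.4%) were called for a larger step in NP, the median analyte had a difference of 0.69, and CCL6 took place 53 from the top. After division by the plane through the Reference Spots the difference was 0.27, with CCL6 at place 91 from the top and 0.78 below the median analyte, which was at 1.05. With the mean Reference Spots the difference was 0.71, and 56 analytes (50.5%) were called for a larger step in NP. With the nearest Reference Spot position it was 0.074. For the step from 0.5 to 2 h the difference between the pressures was 0.15 ± 0.11 (SE) on normalized intensity. With the mean Reference Spots it was 1.12, and 15 analytes (13.5%) were called higher in NP for it. On both scales CCL6 took place 7 of 111 from the top for this difference, 1.85 above the median analyte.

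The other CC chemokines of the array, 10 analytes, were read on the same membranes. In NP, 4 of them had both 16 h samples above both 2 h samples on normalized intensity, 3 had both below and 3 overlapped, with a median step of 0.11 against 0.17 over all 111 analytes. In AP, 2 were above, 7 below and 1 overlapped, with a median of -1.57 against -0.47. Their steps ran between -3.12 and 2.02 in NP and between -2.34 and 1.10 in AP, and relative to the Reference Spots between -2.73 and 2.41 in NP and between -1.92 and 1.51 in AP. CCL2 was not above the Negative Control in NP at 2 h, its step there has no upper bound, and the place of CCL6 against CCL2 in NP is not known. The steps of CCL6 were above those of the other 9 as read in NP and of all 10 as read in AP, on both scales. CCL6 was picked for these steps, so this place is a description only. Both samples were below the 2 h samples at 16 h in 33 of the 111 analytes (29.7%) in NP and in 67 (60.4%) in AP on normalized intensity.

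Among the named members, CCL2 (a main attractant of monocytes) had a step of 1.10 in AP, with 1 of 2 samples at 16 h above the Negative Control, and no step is given for NP, where neither 2 h sample was above it. CCL17, a ligand of CCR4, had 2.02 in NP and -1.45 in AP. CCL19, a ligand of CCR7, had 1.30 in NP and was lower at 16 h in AP, where neither sample was then above the Negative Control. CCL17 and CCL19 thus lay higher at 16 h in NP and lower in AP. CCL5, a gene neighbour of CCL6 and also a ligand of CCR1, had 1.78 in NP, where 1 of 2 samples at 2 h was above the Negative Control, and -0.55 in AP. The combined CCL3 and CCL4 spot, whose CCL3 is a ligand of CCR1 as well, had 0.28 in AP, where 1 of 2 samples at 16 h was above the Negative Control, and in NP neither sample was above the Negative Control at 16 h. CCL12, a monocyte attractant related to CCL2, had 0.22 in NP and -2.04 in AP, again with 1 of 2 AP samples at 16 h above the Negative Control. CCL11, CCL21 and CCL22 were above the Negative Control in every sample and had no positive step. They had -0.42, -1.27 and -0.07 in NP, where CCL22 overlapped, and -1.71, -2.34 and -1.78 in AP. CCL20 had -3.12 in NP, and in AP neither sample was above the Negative Control at 16 h.

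**Figure D4:**
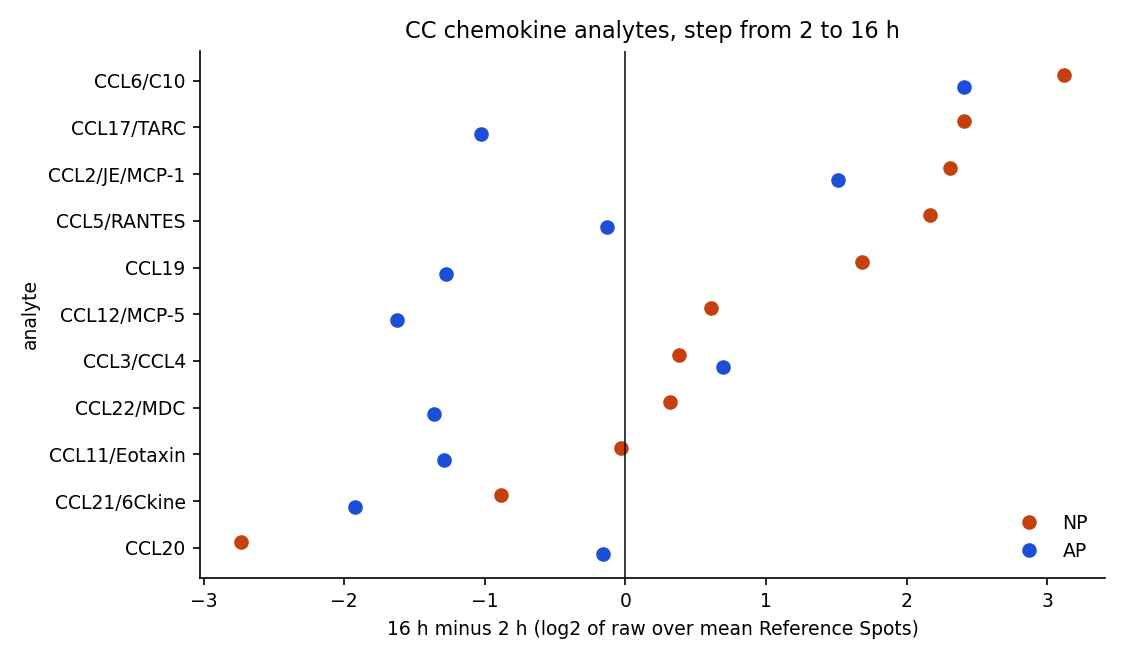
Step between 2 and 16 h for CCL6 and the 10 other CC chemokine analytes (log2 of raw intensity over the mean Reference Spots, difference of group means), with NP in orange and AP in blue. CCL6, at the top, has 3.12 in NP and 2.41 in AP, and CCL2 is the next in AP at 1.51. CCL2 in NP at 2 h, the CCL3 and CCL4 spot in NP at 16 h, and CCL19 and CCL20 in AP at 16 h were not above the Negative Control in either sample, so their points are not measured steps.

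In the comparison of pressures, the other CC chemokines were called on normalized intensity as follows. At 0.5 h 2 were higher in NP, 1 was lower and 7 were not called, with a median of 0.07 against 0.42 over all analytes, of which 49 (44.1%) were called higher and 6 lower. The balance turned with the mean Reference Spots, where 0 were higher, 4 were lower and 6 were not called, with a median of -0.37 against -0.02. The one called lower on normalized intensity besides CCL6 was CCL12, with 418 and 356 in NP against 985 and 976 in AP (-1.35 ± 0.3, limma adjusted p = 0.0017). At 2 h 1 was higher in NP and 9 were lower, beside 96 lower of all 111 (86.5%), with a median of -2.13 against -1.23. At 16 h 1 was higher, 4 were lower and 5 were not called, beside 58 lower of all 111 (52.3%), with a median of -0.14 against -0.52. With the mean Reference Spots 2 were higher, 1 was lower and 7 were not called. The one called higher on normalized intensity besides CCL6 was CCL11 (eotaxin, an attractant of eosinophils), with 6546 and 6745 in NP against 4703 and 4807 in AP (0.48 ± 0.092, limma adjusted p = 2.7e-04).

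The cytokines known to induce CCL6 in mouse macrophage cultures were read on the same membranes. At 0.5 h IL-3 and IL-4 were called higher in NP on normalized intensity, by 1.50 and 0.66 (log2), while IL-13 and GM-CSF were not called, beside 49 analytes of 111 (44.1%) called higher. With the mean Reference Spots only IL-3 of the 4 was called (1.07, limma adjusted p = 0.014), and IL-4 was at 0.23 (limma adjusted p = 0.48). At 2 h IL-3, IL-4 and GM-CSF were called lower in NP, with differences of -1.94, -1.90 and -2.03, where 86.5% of all analytes were called lower. IL-3 and GM-CSF were each above the Negative Control in 1 of 2 NP samples at 2 h, so the size of their differences is not exact. IL-3 was not above the Negative Control in any 16 h sample, and IL-13 and GM-CSF were not above it in AP at 16 h. Between 2 and 16 h on normalized intensity, leaving out IL-3, GM-CSF lay higher at 16 h in both NP samples, with 1 of 2 samples at 2 h above the Negative Control, and IL-4 and IL-13 overlapped in NP. In AP, IL-4 lay lower at 16 h in both samples. IL-4, the one of the 4 above the Negative Control in all 14 samples, was not called between the pressures at 16 h. No relation between these cytokines and CCL6 was tested.

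Analytes printed beside CCL6 on the membrane were examined because the Reference Spots differed in brightness over it. The 5 neighbours (Adiponectin, Amphiregulin, CCL11, CD160 and Chemerin) had steps from 2 to 16 h on normalized intensity of -1.05 to 2.51 in NP, where 1 was higher at 16 h in both samples, 2 were lower and 2 overlapped. In AP all 5 were lower at 16 h in both samples, with steps of -1.71 to -0.73. Adiponectin, directly above CCL6, had 0.10 in NP and -0.87 in AP. The highest of them, CD160 in NP, was above the Negative Control in 1 of 2 samples at 2 h. CCL6 lay above all 5 as read in AP. In NP it lay above Adiponectin, CCL11 and Chemerin, and above Amphiregulin as read. Amphiregulin was also above the Negative Control in 1 of 2 NP samples at 2 h, so neither its step nor that of CD160 is exact. CCL6 was picked for the size of its steps, so its place above these neighbours cannot test an effect of membrane position.

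Proteins that circulate in plasma at all times were used to see how far the whole serum moved. Of the 8 (such as Fetuin A, Cystatin C and Serpin F1), 3 were higher at 16 h than at 2 h in both samples in NP, 3 were lower and 2 overlapped, with a median step of 0.09 on normalized intensity against 0.17 over all 111 analytes. In AP 2 were higher and 6 lower, with a median of -0.46 against -0.47. With the mean Reference Spots 6 were higher and 2 lower in NP, with a median of 0.48 against 0.56, and 3 were higher, 3 lower and 2 overlapped in AP, with a median of -0.04 against -0.05. The median of the list thus moved much as the median analyte did on either scale. Its members did not move together: on normalized intensity their steps ran between -0.73 and 1.39 in NP and between -1.50 and 2.23 in AP. Pentraxin 2, which belongs to this list, had the largest step of the list in both pressures, so it did not serve as a steady protein here. It had 7728 and 7614 in NP at 16 h and 2855 and 3007 in NP at 2 h. In AP it had 10886 and 11385 at 16 h and 2335 and 2408 at 2 h, so that its groups did not overlap in either pressure. Between the pressures at 16 h Pentraxin 2 was called lower in NP (-0.54 ± 0.13, limma adjusted p = 0.0025) on normalized intensity, but not with the mean Reference Spots (-0.041, limma adjusted p = 0.83).

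The analytes whose levels were most like those of CCL6 over the 7 group means were sought on both scales, as a description. On log2 normalized intensity they were VCAM-1 (an adhesion molecule of endothelium, Pearson r = 0.80), Pentraxin 2 (0.75), TNF-alpha (0.75), IL-22 (0.71) and TIM-1 (0.67), against a median r of 0.11 over the other 110 analytes. On the scale of the Reference Spots they were Osteopontin (0.82), VCAM-1 (0.82), C-Reactive Protein (0.82), Pentraxin 2 (0.81) and TNF-alpha (0.80), against a median of 0.24. VCAM-1, Pentraxin 2 and TNF-alpha were in both sets. The 7 points share the brightness of their membranes, and TNF-alpha was above the Negative Control in 12 of 14 samples, IL-22 in 11 and TIM-1 in 12. From 2 to 16 h VCAM-1 had steps of 0.96 in NP and 0.50 in AP on normalized intensity, both smaller than those of CCL6. Pentraxin 2 had 1.39 in NP and 2.23 in AP, and TNF-alpha had 1.45 and 0.66 as read. IL-22 had 0.89 in NP and -0.11 in AP, and TIM-1 had 0.03 and 0.28, as read. IL-22 and TIM-1 each had a group with no sample above the Negative Control. A high r over the 7 means thus did not always go with a late rise in both pressures.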

How the data were processed

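Serum from 14 samples in 7 groups of 2 was measured on membrane arrays. The deposited tables hold, for each sample, the raw intensity of 111 analytes that the authors quantified with ImageJ, and a normalized intensity, for which each raw value was multiplied by a factor of at most 1 that lowers the sample with the brighter mean Reference Spots to its partner in the group. The deposited fold-change columns hold the authors' own comparisons and were not used. Recomputed normalized values differed from the deposited ones by at most 4.75e-06 of their value. Groups were taken from the sample labels. All 111 analytes had a gene symbol. The files name no genome build, and gene order was read from RefSeq (GRCm38.p6).

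Differences between pressures were tested with limma 3.58.1 in R 4.3.3 (lmFit, eBayes with a trend) on log2 normalized intensity over all 14 samples, Benjamini-Hochberg over 111 analytes, threshold 0.05, with no block. Intervals are 95% intervals from limma. An array holds no counts, and 2 samples a group limit the precision. Alternatives were scaling to the mean Reference Spots, the nearest position, a plane through the 3 positions, the median analyte or quantiles, and raw values. Further ones were subtraction of the Negative Control with a floor of 10 (164 values) and an offset of 1% of the mean Reference Spots. Others were a filter on the dimmest 0.25 of the analytes, no trend and a fit of only the groups compared. A replicate block, the methods' t-test and leaving out each sample were also tried. Scripts were tested on simulated data. Ranks, steps and likeness (Pearson r over group means) are descriptions.

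CCL6 and the lists were chosen with earlier results of these data known. Besides CCL6, analytes were named from the lists (CC chemokines, CCR1 ligands, inducers of CCL6, constitutive plasma proteins, membrane neighbours), as the 5 most like CCL6 on each scale, and as those with a larger step where these were at most 5. Python 3.11.15 was used for the tables (pandas 2.3.3, numpy 2.4.6) and for plotting (matplotlib 3.10.9). No value column was left unused apart from the folds.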

Additional observations from a re-analysis of the deposited data

Results flagged for a closer look

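The step of CCL6 between 2 and 16 h was larger in NP than in AP, by 0.74 on the log2 scale. It was flagged as a difference between pressures, but CCL6 was selected on the steps it is computed from, so no p-value is given. The median of the 111 analytes had a difference of 0.69, and 51.4% of them were called for a larger step in NP. For CCL6 the difference was 0.27 with the plane through the Reference Spots and 0.074 with the nearest position. It was negative after scaling to the median analyte (-1.68) or quantiles (-0.44). Groups of 2 samples allow no test for single samples that stand apart.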

How the results depend on the processing

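The lower CCL6 of NP at 0.5 h kept its direction and call in 13 of 13 alternatives (-1.68 to -0.61) and without each of the 14 samples (-0.72 to -0.66). At 2 h the difference of -0.54 was -0.0081 with the mean Reference Spots, 0.64 with the nearest position, 0.44 with the plane, 1.34 with the median analyte and 1.18 with quantiles, and -0.59 to -0.48 without single samples. At 16 h the 0.20 was -0.34 with the median, and was not called without the trend (adjusted p = 0.060) or by the methods' t-test after adjustment (0.20, adjusted p = 0.14). Without single samples it was 0.15 to 0.26 (adjusted p 0.025 to 0.23). The difference in the step from 0.5 to 2 h, 0.15, was 1.12 with the mean Reference Spots, 1.33 with the nearest, 1.24 with the plane, 3.02 with the median and 2.53 with quantiles, and 0.097 to 0.21 without single samples. That in the step from 2 to 16 h, 0.74, was 0.27 with the plane, 0.074 with the nearest, -1.68 with the median and -0.44 with quantiles, and 0.68 to 0.80 without single samples. The cause of these changes was not tested.

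The step from 2 to 16 h was positive in both pressures under all 8 alternatives tried. In NP it was 3.12 (mean Reference Spots), 2.87 (nearest), 2.96 (plane), 2.63 (median), 2.63 (raw) and 2.64 (offset). In AP it was 2.41, 2.79 and 2.69 for the same first 3, 4.31 (median) and 3.24 (quantiles). In the order mean, nearest, plane, median and quantiles, the step from 0.5 to 2 h in NP was 0.60, 0.91, 0.80, 1.40 and 0.94, that from 0 to 16 h was 2.91, 3.02, 2.98, 0.62 and 2.00 in NP and 2.21, 2.30, 2.27, 0.96 and 1.26 in AP, all with the sign turned. The step from 0 to 0.5 h in AP turned to 0.32 (mean) and 0.029 (plane).

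Analytes called higher and lower in NP at 0.5, 2 and 16 h were 49 and 6, 4 and 96, and 9 and 58. They were 14 and 24, 11 and 70, and 23 and 19 with the mean Reference Spots, 49 and 6, 32 and 39, and 23 and 20 with the nearest, 7 and 46, 6 and 90, and 22 and 17 with the plane, 3 and 49, 50 and 13, and 5 and 80 with the median, and 14 and 17, 30 and 31, and 21 and 24 with quantiles. The methods' t-test had 50, 79 and 59 analytes at an unadjusted 0.05 for 0.5, 2 and 16 h. After adjustment it had 16 higher and 5 lower, 2 and 66, and 8 and 41.

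With a replicate block the 5 values were -0.69, -0.54, 0.20 (adjusted p = 0.030), 0.15 and 0.74, and no call between the pressures at a given time changed. Deviations of same-numbered samples had r of -0.18 to 0.50 over 21 pairs of groups, with a median of 0.18 and above 0.1 in 14. The labels do not say whether same-numbered samples belong together, and these values cannot decide it.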
